A study of Caenorhabditis elegans with 2 samples.

Results

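The 174 cuticle collagen genes examined here were the protein-coding genes whose symbol is col- followed by a number, 156 in all, together with 18 collagen genes known by the body-shape phenotype of their mutants. Of 19 such body-shape symbols listed, only ram-4 was not found under that name in the annotation used. The set was compared with the other 19799 protein-coding genes on chromosomes I to V and X. The assay was chromatin immunoprecipitation with sequencing (ChIP-seq) for LET-526 in whole Caenorhabditis elegans young adults. LET-526 corresponds to mammalian ARID1, which binds DNA as part of SWI/SNF (BAF), a complex that repositions nucleosomes. The animals were of strain RW12306, which carries st12306, a CRISPR insertion of TY1, EGFP and 3xFLAG tags at let-526 on chromosome I. They were synchronised by starving L1 larvae after bleaching and collected at 60 hours as young adults. Chromatin was sonicated and, per the labels, recovered with an antibody against GFP, although the antibody tag of the labels names let-526. There was 1 group with 2 biological replicates of the 1 strain. No untagged or input library was analysed here.

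Cuticle collagens are short secreted proteins with Gly-X-Y repeats that the epidermis makes anew at each moult and that form most of the worm's exoskeleton. Some build named structures, such as the annular furrows that ring the body or the struts that join the layers of the adult cuticle, and mutants are short and fat (dumpy), helically twisted (roller), blistered or long. The chains are hydroxylated, assembled into trimers, cut by a furin-type protease at an R-X-X-R motif and cross-linked by a dual oxidase and a peroxidase. In whole worms, weak binding in many cells and strong binding in few cells cannot be told apart.

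The files held 4 thresholded and 4 ranked peak lists on the ce11 assembly (WBcel235). The optimal list, made from both replicates, had 1200 peaks, the stricter conservative list 1077, and the lists of replicates 1 and 2 had 585 and 421. The ranked lists, which keep weaker peaks, had between 46104 and 81275. The files gave no reads, so the depth of the libraries is unknown. A promoter peak is a peak whose summit lay in a window that begins 1000 bp upstream of a gene's annotated start and ends 200 bp downstream. Signal is the authors' peak value and is compared within 1 list only. The deposited score, at most 1000, runs with reproducibility as computed for its own list, and was at least 830 in the optimal list. The same peak can have unlike scores in different lists. Intervals are exact Clopper-Pearson 95% intervals and cover counting error over genes only.

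Cuticle collagen genes had few promoter peaks of LET-526. Only col-71 and col-85, both on chromosome II, had an optimal peak, 2 of 174 (1.15%, interval 0.140 to 4.09%), against 662 of 19799 other genes (3.34%, interval 3.10 to 3.60%). Over all 19973 genes the share was 3.32%. The intervals overlapped, so a lower share among collagen genes was not resolved in this list. None of the 174 had a conservative peak, which allows a share of up to 1.72%, against 631 other genes (3.19%, with 3.16% over all genes). None had a peak in the list of replicate 1 or in that of replicate 2, against 365 other genes (1.84%, with 1.83% over all genes) and 269 other genes (1.36%, with 1.35% over all genes). The limit of 1.72% lay below the share of other genes in the conservative list and in the list of replicate 1, and above it in that of replicate 2, while the exact interval reached 2.10%. Another pair of large families had shares of the same order in the optimal list, with 5 of 269 nuclear hormone receptor genes (1.86%) and 4 of 281 genes of the srh and sri chemoreceptor families (1.42%).

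**Figure D1:**
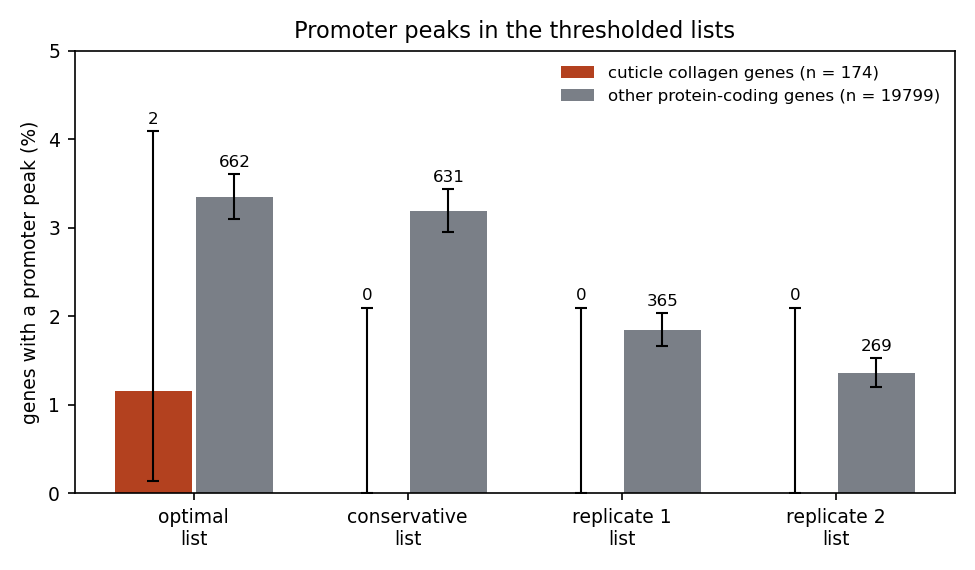
Share of genes (%, y axis) with a promoter peak in each thresholded list, for cuticle collagen genes (left bar of each pair, n = 174) and other protein-coding genes (right bar, n = 19799), with exact 95% intervals and the number of genes above each bar. Collagen genes had 2 genes with a peak in the optimal list and 0 in each of the other 3 lists.

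The DNA under the counted peak of col-71 and under other peaks at collagen genes is shown next, from the RefSeq WBcel235 genome. The first line is the peak between col-71 and its neighbour, chrII:3502699-3502968, plus strand, with the summit and 20 bases on either side in capitals. The other 3 lines are peaks whose summit lay in a transfer RNA (tRNA) gene, with that gene in capitals. They are chrII:12494640-12494909 in an intron of col-85, plus strand, chrX:13511901-13512170 upstream of col-185, minus strand, and chrII:3521383-3521652 in an intron of col-72, minus strand. These 3 peaks lie outside the count above. The col-85 peak that was counted overlaps the intron peak and is not shown. The peaks of col-185 and col-72 were chosen after their values were seen.
col-71 peak: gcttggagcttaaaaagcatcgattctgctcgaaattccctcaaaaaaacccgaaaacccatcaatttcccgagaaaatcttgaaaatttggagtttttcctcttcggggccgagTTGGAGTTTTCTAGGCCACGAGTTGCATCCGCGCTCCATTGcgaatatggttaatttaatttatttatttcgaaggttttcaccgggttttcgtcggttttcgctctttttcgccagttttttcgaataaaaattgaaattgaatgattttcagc
col-85 intron peak: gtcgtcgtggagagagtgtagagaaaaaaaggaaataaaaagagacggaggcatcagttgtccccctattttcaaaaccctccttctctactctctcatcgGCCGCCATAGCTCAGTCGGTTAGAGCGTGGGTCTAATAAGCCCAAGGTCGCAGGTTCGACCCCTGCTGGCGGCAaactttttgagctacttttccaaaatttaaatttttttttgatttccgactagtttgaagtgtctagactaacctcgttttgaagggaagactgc
col-185 upstream peak: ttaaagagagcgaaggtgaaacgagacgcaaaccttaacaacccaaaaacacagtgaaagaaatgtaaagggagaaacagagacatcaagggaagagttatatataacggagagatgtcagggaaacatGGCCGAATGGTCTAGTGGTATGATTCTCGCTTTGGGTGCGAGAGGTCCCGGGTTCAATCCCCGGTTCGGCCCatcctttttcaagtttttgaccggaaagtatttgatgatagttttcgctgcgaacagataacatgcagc
col-72 intron peak: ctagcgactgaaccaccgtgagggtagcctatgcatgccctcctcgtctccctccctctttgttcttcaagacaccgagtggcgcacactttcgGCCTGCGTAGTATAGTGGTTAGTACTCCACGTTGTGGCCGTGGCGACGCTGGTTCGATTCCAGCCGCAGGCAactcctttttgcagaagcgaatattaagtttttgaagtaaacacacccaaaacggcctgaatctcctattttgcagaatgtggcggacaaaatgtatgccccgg

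The gene col-71 (WBGene00000647, II 3500077 to 3502570, minus strand) had the highest promoter signal of any cuticle collagen gene. Its optimal peak had a signal of 69.7 and a score of 893, with the summit 264 bp upstream of the start. The overlapping peaks in the ranked lists had a signal of 32.5 in replicate 1 and of 46.0 in replicate 2, so both replicates had a peak there although neither passed the threshold alone. In the ranked list of replicate against replicate the peak had a score of 781, below the threshold of the conservative list. It lay between a pair of genes transcribed away from each other, whose starts were 397 bases apart. The other gene, Y49F6B.2 (WBGene00021715, plus strand), encodes a protein with an Fcf2 pre-rRNA processing domain, and its start was nearer to the summit, at 134 bp. With peaks assigned to the nearest start alone, col-71 had no peak. The 662 other genes with an optimal peak had promoter signals of 11.1 to 588.6 with a median of 100.3, so the signal of col-71 was below that median, and its rank among all 19973 genes was 823.

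At col-85 (WBGene00000660, II 12493703 to 12495095, minus strand) a pair of overlapping optimal peaks lay inside the gene. The peak counted in the promoter window had its summit 119 bp downstream of the start, in exon 2, with a signal of 10.9, the lowest of any gene with an optimal promoter peak. Its score was 1000 in the optimal list but 69 in the ranked list of replicate against replicate. Replicate 1 had a ranked summit in the window with a signal of 13.5, and replicate 2 had none. The second peak was stronger, with a signal of 83.7, and its summit lay 320 bp downstream of the start, in an intron and outside the window. It was also in the conservative list, and had signals of 40.9 in replicate 1 and 45.8 in replicate 2. That summit fell inside the tRNA-Ile gene T21B4.t1 (WBGene00014524, II 12494741 to 12494814), which lies in the intron of col-85 on the opposite strand. An ncRNA gene, T21B4.18, covered the summit of the weaker peak, and another, T21B4.19, that of the stronger. The only optimal peaks of col-85 were thus within 200 bp of a tRNA gene, and without such peaks, an alternative chosen after the data were seen, 1 collagen gene (col-71) and 633 other genes had a promoter peak.

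The strongest promoter peak below the threshold was that of col-185 (X 13510035 to 13511097, minus strand), with a signal of 68.8 and a score of 685 in the ranked list of both replicates. Replicate 1 had 32.7 at this site and replicate 2 had 40.1. The summit lay 939 bp upstream of the start, inside the tRNA-Pro gene H06A10.t1 (WBGene00014413, X 13511970 to 13512041) and the overlapping ncRNA gene H06A10.3. This was the only cuticle collagen gene with a tRNA gene in its promoter window. Among other genes, 118 had one there, and 29 of them (24.6%) had an optimal promoter peak, against 3.22% of those without. The part of the tRNA genes in the peaks at col-85 and col-185 was not tested.

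**Figure D2:**
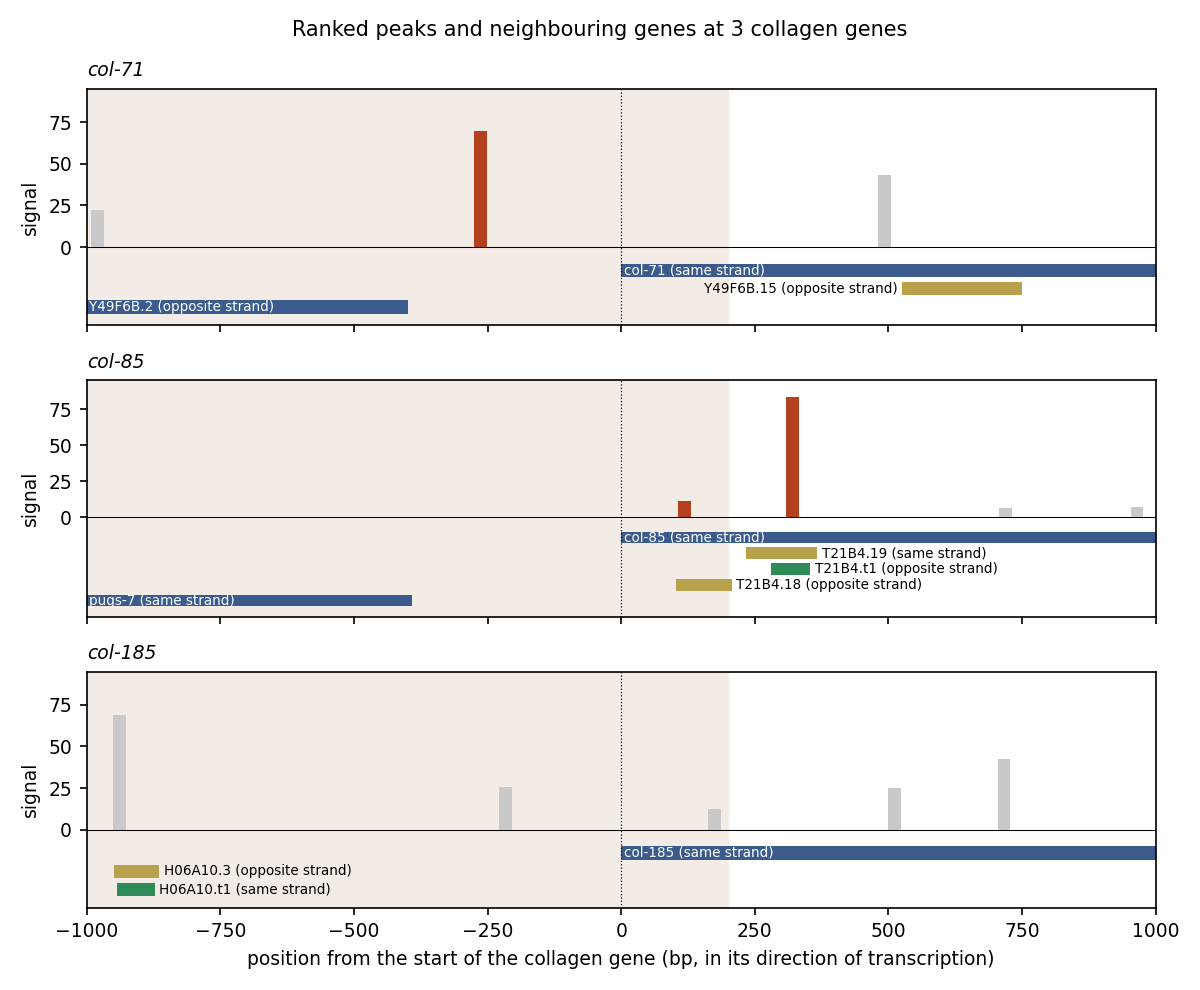
Peaks of the ranked list of both replicates (bars, signal on the y axis) and annotated genes (boxes: blue protein-coding, green tRNA, yellow other ncRNA) from 1000 bp upstream to 1000 bp downstream of the starts of col-71, col-85 and col-185, in each collagen gene's direction of transcription. Red bars are peaks of the optimal list, shading marks the promoter window, and the tall bars at col-85 and col-185 (83.7 and 68.8) stand over tRNA genes while that at col-71 (69.7) stands between divergent starts.

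The ranked lists gave a fuller view of the collagen promoters, since most had some weak peak. In the ranked list of both replicates, 116 of 174 collagen genes (66.7%) and 12973 of 19799 other genes (65.5%) had a summit in the window, with 65.5% over all genes. The highest signal in the window had a median of 34.4 over the 116 collagen genes and of 33.8 over the 12973 other genes. The upper part of the distribution differed more, with a 90th percentile of 50.1 for collagen genes and 59.7 for other genes. The 95th percentiles were 54.1 and 76.5. The maxima were 69.7 and 588.6, but a maximum tends to rise with the number of genes, here 116 and 12973. Among all genes ranked by this signal, 3 collagen genes were in the top 5% (1.72% of the 174, col-71, col-185 and col-95) and 8 in the top 10% (4.60%). At an IDR (irreproducible discovery rate) of 0.05 or less, 3 collagen genes (1.72%) and 1119 other genes (5.65%) had a promoter peak, with 5.62% over all genes. The mean number of ranked summits per window in this list was 1.03 for collagen genes and 1.03 for other genes, beside 0.973 given by the density of summits over the 6 chromosomes.

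**Figure D3:**
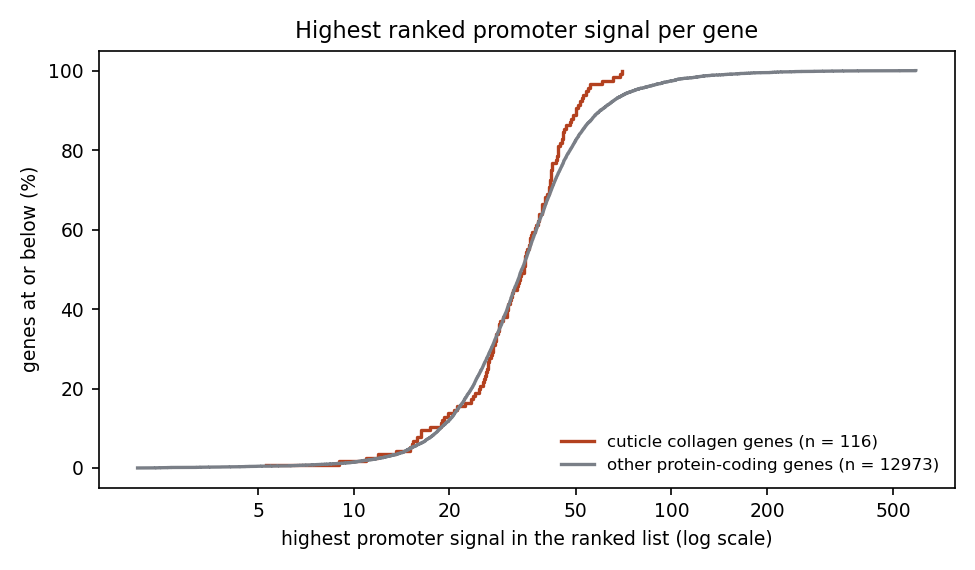
Cumulative share of genes (%, y axis) by the highest signal in the promoter window (x axis, log scale) in the ranked list of both replicates, for the 116 cuticle collagen genes and 12973 other protein-coding genes with a ranked summit. The curves coincide near their medians (34.4 and 33.8) and part above them. The collagen curve ends at 69.7 and that of other genes at 588.6, ends that also depend on the unequal numbers of genes.

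In each replicate taken alone, the upper end of the signals was again lower for collagen genes, and the medians differed by less. In the ranked list of replicate 1, 83 collagen genes (47.7%, with 47.3% over all genes) had a summit in the window, with a median signal of 21.8 against 22.5 for other genes and a 95th percentile of 37.6 against 51.2. In that of replicate 2, 90 collagen genes (51.7%, with 50.1% over all genes) had a summit, with a median of 17.7 against 19.5 and a 95th percentile of 31.4 against 41.3. The mean number of ranked summits per window was 0.563 for collagen genes against 0.610 for other genes in replicate 1, and 0.609 against 0.640 in replicate 2. The top 10% of genes held 10 collagen genes in replicate 1 and 9 in replicate 2, and the top 5% held 4 in each. In the ranked list of replicate against replicate, 124 collagen genes (71.3%, with 64.2% over all genes) had a summit, with a median of 34.0 against 34.3 for other genes. At an IDR of 0.05 or less, 4 collagen genes had a promoter peak in this list (5.14% over all genes), and none did in the ranked list of replicate 1 (3.01% over all genes) or of replicate 2 (2.23% over all genes). A ranked summit in both replicate lists was found for 54 collagen genes, and over these the rank correlation of the signals (Spearman's rho) was 0.267, with a Pearson's r of 0.288 between log10 values. Over 6169 other genes the values were 0.420 and 0.576. These correlations are across genes, which are not replicates and some of which share a summit. No ranked summit in any of the 4 lists was found for 30 collagen genes.

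The collagens of the annular furrows are dpy-2, dpy-3, dpy-7, dpy-8, dpy-9 and dpy-10, which are needed for the furrows and whose mutants are dumpy. None of the 6 had an optimal peak, but with 3.32% over all genes, 6 genes are too few to show a lower share. In the ranked list of both replicates dpy-2 and dpy-3 each had a highest signal of 34.7, dpy-10 of 28.0, dpy-7 of 26.3 and dpy-8 of 15.1, while dpy-9 had no summit. The median of the 5 with a summit was 28.0, while dpy-2 and dpy-3 lay above the 33.8 of other genes. Only dpy-2 had a summit in both replicate lists, at 19.9 in replicate 1 and 19.3 in replicate 2. In the list of replicate 1 dpy-10 also had a summit, at 13.8, and in that of replicate 2 dpy-7 had 22.7, dpy-8 had 15.4 and dpy-3 had 13.0. The gene dpy-9 had a summit in the list of replicate against replicate alone, at 21.0. The summit of dpy-10 lay 839 bp upstream of its start and 135 bp from the start of T14B4.19, a gene that overlaps it.

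The genes bli-1 and bli-2 encode collagens of the struts, and their mutants have blistered cuticles. Neither had an optimal peak, but with 3.32% over all genes, a pair of genes cannot show a lower share. The gene bli-1 had a signal of 60.6 in the ranked list of both replicates, with overlapping peaks of 47.0 in replicate 1 and 20.01 in replicate 2. The gene bli-2 had 51.5, with 39.5 in replicate 1 and 16.6 in replicate 2. In the list of both replicates and in that of replicate 1 these values lay above those of the 6 furrow genes. In that of replicate 2 both were below the 22.7 of dpy-7, and bli-2 was also below dpy-2. Another replicate 2 peak in the bli-1 window had 25.2. Neither summit of the list of both replicates lay in sequence belonging to the strut gene alone. That of bli-1, 814 bp upstream of the start, fell inside the collagen gene col-80 and inside dph-2, a diphthamide synthesis gene in which both are nested. That of bli-2, 101 bp downstream of the start, fell inside zyg-1, a centriole duplication kinase gene on the opposite strand. Their scores were 482 and 252, below the threshold.

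The other 10 body-shape collagens also had no optimal peak, again too few genes to show a share below the 3.32% of all genes. Of these 10, 8 had a ranked summit in the list of both replicates, with a median of 43.4. The highest was sqt-3, a collagen whose mutants are dumpy or roller, with a signal of 52.2 and a summit 127 bp downstream of its start. Its overlapping peaks were 23.3 in replicate 1 and 26.2 in replicate 2. Next came dpy-13 and dpy-5, each with 45.7, dpy-17 with 44.7 and sqt-2 with 42.2. At dpy-13 replicate 1 had no summit and replicate 2 had 15.1, while dpy-5 had 22.7 and 20.2. The summit at dpy-13, which lay 212 bp upstream of its start, was 37 bp from that of the divergent zinc transporter gene zipt-2.2. The gene lon-3, whose mutants are long, had 36.2, dpy-4 had 35.9 and sqt-1 had 19.8. The roller genes rol-6 and rol-8 had no summit in the list of both replicates, and rol-6 had a summit of 18.6 in the list of replicate 1 only. Over all 18 body-shape genes, then, signals ran from 15.1 to 60.6 where a summit was found, and 3 had none.

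Among the 156 numbered col- genes, 101 had a ranked summit in the list of both replicates, with signals from 5.31 to 69.7 and a median of 33.0. After col-71 and col-185, col-95 had the highest signal, 65.7, with its summit 419 bp upstream of the start and pqn-84, the next annotated gene, 713 bp away. Its overlapping peaks were 38.1 in replicate 1 and 34.7 in replicate 2, and its score was 446. The gene col-143 had 55.6, against 40.3 and 17.8 in the lists of replicates 1 and 2, and its summit was nearer to the start of the divergent T15B7.14 (102 bp) than to its own (191 bp). The gene col-101, nested in the kinase gene drl-1, had 54.8, with 39.9 in replicate 1 and 17.3 in replicate 2. The gene col-141 had 53.9, with 21.2 in replicate 1 and 39.4 in replicate 2, so the replicates ranked col-101 and col-141 in opposite order. The remaining named genes were close together, with 52.7 at col-166, 50.9 at col-169, 50.2 at col-38, 50.1 at col-39 and 48.9 at col-41. No replicate 2 peak overlapped that of col-38, and replicate 1 had no summit in the window of col-41. The summit at col-39 fell inside col-79 and dph-2, and that at col-41 inside ucr-2.2. The summit at col-38 was 407 bp from the start of the ribosomal protein gene rpl-5 and 432 bp from that of col-38. The adult collagen gene col-19, widely used as a marker of the adult epidermis, had no summit in the list of both replicates, with 27.3 in replicate 1 and 11.5 in replicate 2, and was chosen for mention after its values were seen.

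**Figure D4:**
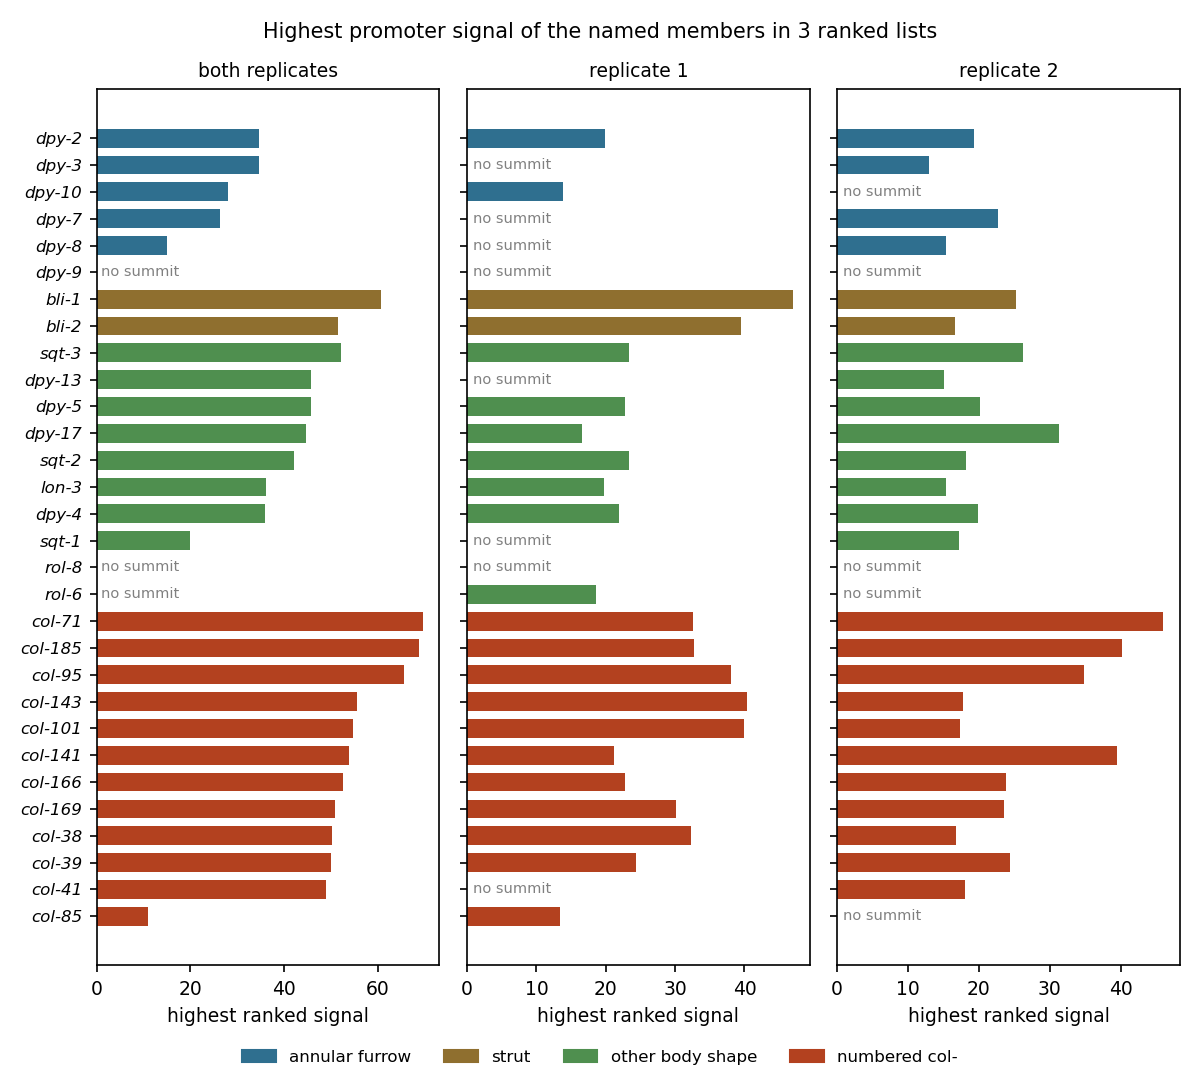
Highest signal in the promoter window (x axes, linear, from 0) of the 18 body-shape collagen genes, by role, and of 12 numbered col- genes, in the ranked lists of both replicates, replicate 1 and replicate 2. Scales differ between panels because signals compare within 1 list only, and a replicate's highest signal can belong to another peak of the window than the overlapping peak given in the text. Furrow genes lie at or below 34.7 in the left panel, strut genes at 51.5 and 60.6, and no bar exceeds the 69.7 of col-71.

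Optimal peaks also lay in collagen genes outside the promoter window, and several of these stood on genes for small RNAs. These peaks were described after their values were seen. In all, 5 collagen genes, col-54, col-72, col-78, col-85 and col-34, held an optimal summit in the gene body (2.87%, interval 0.939 to 6.58%), against 394 other genes (1.99%, interval 1.80 to 2.19%), with 2% over all genes. The share of collagen genes was near that of all genes, and the intervals overlapped. In col-72 (II 3520703 to 3524197) the summit of the peak shown above lay 2679 bp downstream of the start, in an intron and inside the tRNA-His gene W09G10.t1, with a signal of 98.3 and with 47.3 in replicate 1 and 45.0 in replicate 2. This peak was in the conservative list and in that of replicate 1. A second intronic peak of col-72, 440 bp downstream of the start and with no annotated small RNA gene within 200 bp, had a signal of 93.8, with 40.7 in replicate 1 and 57.4 in replicate 2, and was in the conservative list and in that of replicate 2. In col-54 the summit lay in an intron 423 bp downstream of the start, inside the tRNA-Arg gene F33D11.t2, with a signal of 73.9, with 46.6 in replicate 1 and 24.5 in replicate 2. Exonic summits lay at col-78, 1499 bp downstream of the start with a signal of 80.2, and at col-34, 631 bp downstream with 76.1. The strongest optimal peak within 2000 bp upstream of a collagen start was 1807 bp upstream of col-94, with a signal of 195.7, on the snRNA gene W05B2.8 inside dhc-4, a dynein heavy chain gene that also encloses col-92 and col-93. It was in all 4 thresholded lists, and had 106.3 in replicate 1 and 85.2 in replicate 2.

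There were 5 tRNA genes within a collagen gene or within 1000 bp upstream of its start, at col-54, col-72, col-85, col-99 and col-185. An optimal summit lay within 200 bp of 3 of the 5 (60%), against 86 of 382 tRNA genes placed in the same way at other genes (22.5%) and 147 of all 612 (24.0%). At col-99 the tRNA-Arg gene F29C4.t1 was 48165 bp from the nearest optimal summit, and at col-185 the tRNA gene had the peak below the threshold given above. Of the 5 tRNA genes, 4 held the letters GTTCGANNC, as did 441 of all 612 (72.1%). These letters are 1 form of the B box, an internal promoter element of tRNA genes. H06A10.t1 at col-185 did not hold them, and its capitals above contain GTTCAATCC. Other forms of the B box were not searched for, so a gene without GTTCGANNC may still hold one. GTTCGANNC can be read inside the capitals of the col-85 and col-72 sequences. A match of letters is a description, and the number of tRNA genes at collagen genes is too small for more than these counts.

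With these sites included, the 174 collagen genes were about as far from LET-526 peaks as other genes. The nearest optimal summit was a median of 36531.5 bp from the start for collagen genes and 36931 bp for other genes. It was within 5000 bp for 17 collagen genes (9.77%) and for 11.3% of other genes. Within the promoter window, ranked summits at collagen genes were spread along the whole window, with between 9 and 23 of them in each 100 bp. Optimal summits at other genes were most frequent between 300 and 100 bp upstream of the start, with 128 and 116 in the pair of 100 bp bins there. The col-71 summit lay in that stretch, while the col-85 summit lay in the last bin downstream, which held 15 summits of other genes.

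**Figure D5:**
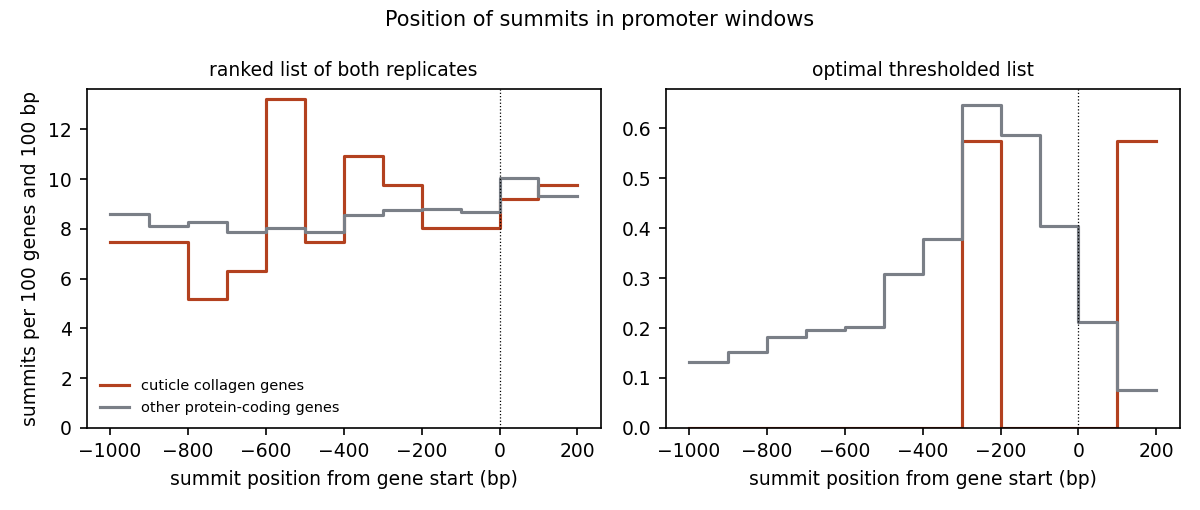
Summits per 100 genes in each 100 bp of the promoter window (y axes) by position from the gene start (x axes, bp, upstream negative) in the ranked list of both replicates (left) and the optimal list (right), for cuticle collagen genes and other protein-coding genes. Ranked summits are spread over the window in both groups, and in the right panel the collagen line is made by 1 summit of col-71 and 1 of col-85.

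Traits of the genes and their proteins were compared as well. The genes were chosen by names given to collagens, so a Gly-X-Y repeat in their proteins is no independent result. At least 10 Gly-X-Y triplets in a row were found in 173 of 174, against 20 of 19799 other genes. The exception was col-17, whose Ensembl coding model gave no such run. Such a run marks a collagen and not a cuticle collagen as such. RefSeq product names gave cuticle collagen for 157 of the 174 and for 6 other genes. An R-X-X-R motif before the repeat was found in 165. The genes were short, with a median length of 1220 bp and 2 exons, against 2040 bp and 5 exons for other genes. They were unevenly placed, with 44 of 174 (25.3%) on chromosome IV, against 16.3% of other genes. Next to another collagen gene lay 48 of them (27.6%), while 287 other genes (1.45%) lay next to a collagen gene. Nested inside another protein-coding gene were 26 (14.9%), against 3.52% of other genes, with dph-2 holding 4 of them (bli-1, col-39, col-79 and col-80) and dhc-4 holding 3. None of the 26 had an optimal promoter peak, against 20 of the 697 nested other genes. With 3.32% of all genes having such a peak, 26 genes are too few to show a lower share.

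Fewer collagen genes shared their promoter window with another start. Another protein-coding start lay in the window of 24 collagen genes (13.8%), against 21.3% of other genes. Among genes with such a start, 1 of 24 collagen genes (4.17%), col-71, and 287 of 4225 other genes (6.79%) had an optimal peak. Among genes without one, 1 of 150 collagen genes (0.667%), col-85, and 375 of 15574 other genes (2.41%) did. Over windows without another start, the ratio of the median ranked signal of collagen genes to that of other genes was 1.00. The base composition of the windows was similar, with a median GC content of 35.7% for collagen genes and 34.9% for other genes. In the 101 bases at the strongest ranked summit, the median GC content was 40.6% for collagen genes and 40.6% for other genes with a ranked summit, while at the 662 other genes with an optimal peak it was 49.5%.

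Short motifs were counted on both strands from 250 bp upstream to 50 bp downstream of each start, in sequence from the same genome. AGGTCA, the core site of many nuclear receptors, was found in 25 of 174 collagen promoters (14.4%), against 8.27% of all promoters and 6.93% of the 664 with an optimal peak. GAGAGA was found in 28.7% of collagen promoters, against 21.8% of all and 31.0% of those with a peak. TGATAA, a site of GATA factors such as those of the epidermis, was in 29.3% of collagen promoters, against 30.2% of all and 24.5% of those with a peak. CACGTG was in 3 collagen promoters (1.72%), against 5.82% of all and 8.13% of those with a peak. For AGGTCA and CACGTG the collagen promoters and the promoters with a peak lay on opposite sides of the share over all promoters. For GAGAGA both lay above that share, and for TGATAA both lay below it. These differences carry no interval and were not tested, and that of CACGTG rests on 3 collagen promoters.

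Genes that act with the collagens also had no optimal promoter peak. This held for each of 18 genes for collagen modification and cross-linking, 5 other collagens, 46 other cuticle and apical matrix genes and 15 regulators of the epidermis and of moulting. The limits a count of 0 allows were 16.7, 60, 6.52 and 20%, each above the 3.32% of all genes, so a lower share was not detectable in lists of these sizes. Of the 18 modification genes, 11 had a ranked summit, with a median signal of 36.8 in the list of both replicates. The 3 with the highest values encode protein disulfide isomerases, enzymes of protein folding, and the genes named here were chosen after their values were seen. The gene pdi-3 had 79.1 and a peak in the list of replicate 1 (61.0), pdi-2 had 74.1 and a peak in the conservative list, and pdi-1 had 61.3 and a peak in the list of replicate 2 (50.3). The pdi-3 summit lay 628 bp upstream of its start, with no overlapping peak in replicate 2, and the gene ubql-1 had the same highest signal. Replicates 1 and 2 both had overlapping peaks at pdi-2 (42.0 and 47.6) and at pdi-1 (19.6 and 50.3). In the list of both replicates all 3 isomerase genes exceeded the 60.6 of bli-1, the highest of the body-shape collagens. No summit of this list was found at the dual oxidase gene bli-3 or the furin gene bli-4, and the prolyl hydroxylase genes dpy-18 and phy-2 had 32.9 and 44.9. Among the other collagens, let-2, which encodes a type IV collagen chain of basement membranes, had 67.3, and emb-9, which encodes its partner chain, had no summit.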

How the data were processed

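ChIP-seq of LET-526-EGFP was measured in 2 biological replicates of whole young adults, 1 group. Per the file headers and names, the authors deposited thresholded and ranked peak lists on ce11. Each peak carries a signal as deposited, set by the peak caller, a deposited score of at most 1000, and, in ranked lists, a −log10 IDR given by the authors. The aligner and the caller were not given in the sources used here. Of the ranked lists of both replicates, that holding all conservative peaks was taken as replicate against replicate. Replicate values come from the overlapping peak of each replicate's own ranked list.

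Positions were set against WBcel235 with Ensembl release 115 genes (19973 protein-coding genes, 6 chromosomes), using Python 3.11.15, pandas 2.3.3, numpy 2.4.6, scipy 1.17.1 and Biopython 1.88. Counting was checked on simulated peaks. No test was made: shares have 95% Clopper-Pearson intervals, and a count of 0 of n is limited at 3 of n. Promoter and coding sequences were read from the genome. Named genes were, by rule, collagen genes with a thresholded peak, all body-shape genes and the 10 others with the highest ranked signal; exceptions are marked. Members and lists were chosen with earlier results of these data known.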

Additional observations from a re-analysis of the deposited data

How the results depend on the processing

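The count of collagen genes with an optimal promoter peak, 2, was small enough for a single peak to move it. It became 0 with the conservative list and with peaks above the median signal, 0 with the list of either replicate alone, 1 with the nearest start only (col-85), 1 without peaks within 200 bp of a tRNA gene (col-71, added after the data were seen), and 5 with a window of 2000 bp upstream to 500 bp downstream (adding col-54, col-72 and col-94). It was 2 with a window of 500 bp upstream, with any base of the peak or with any transcript start, and 3 at a score of 540 or more (adding col-185). The other genes counted 662, and 269 to 365 with either replicate alone, 418 above the median signal and 1119 at a score of 540 or more. With the conservative list, the other windows, any base, the nearest start, any transcript start or no peaks near tRNA genes, they counted between 494 and 937. The share of collagen genes was below that of other genes in each of these settings. The ratio of median ranked signals of collagen genes to other genes was 1.02, 0.977 to 1.02 under the other windows and the conservative comparison, and 0.909 to 0.971 with either replicate alone. The count in the top 10% was 8, and 8 to 12 otherwise. The correlation between replicates over 54 genes was 0.267, and 0.288 as Pearson's r. The causes were not tested. No paired analysis was possible because there was 1 group. Without read counts, depth is unknown, and a promoter without a peak may be bound below what these libraries show.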
